A study of Mus musculus with 12 samples.

Results

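Neurofilaments and the microtubules beside them form the cytoskeleton of axons and dendrites, and 8 genes of this system are described here in injured mouse spinal cord. They encode the light, medium and heavy neurofilament chains (Nefl, Nefm and Nefh), alpha-internexin (Ina), the microtubule-associated proteins Map1b, Map2 and tau (Mapt), and the neuronal beta-tubulin Tubb3. The genes were chosen by symbol and make up 8 of the 57180 genes in the deposited tables, where each symbol matched 1 row. Their Ensembl identifiers are ENSMUSG00000022055 (Nefl), ENSMUSG00000022054 (Nefm), ENSMUSG00000020396 (Nefh), ENSMUSG00000034336 (Ina), ENSMUSG00000052727 (Map1b), ENSMUSG00000015222 (Map2), ENSMUSG00000018411 (Mapt) and ENSMUSG00000062380 (Tubb3).

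Bulk RNA sequencing had been done on spinal cord of female wild-type C57BL/6J mice with a clip compression injury at T9-T10, collected 7 days after the injury with about 0.5 cm of cord on either side of the lesion. The group SCI7 received only the injury. Ovariectomy, which removes the ovaries and with them the main source of oestrogen, preceded the injury by 2 weeks in OVX2_SCI7 and by 8 weeks in OVX8_SCI7. Each group had 4 libraries from separate biological replicates. All 12 mice were thus injured, and an uninjured or sham-operated group was not analysed here. The labels give an age of 8 weeks for every mouse without saying to which event it refers.

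Neurofilament chains assemble into the filaments that set the calibre of large axons, and alpha-internexin is a further subunit of the filaments in central neurons. Nefm and Nefh proteins have long tails that are phosphorylated in the axon. Tau is found mainly in axons, Map2 mainly in cell bodies and dendrites, and Map1b is most abundant in growing axons. Tubb3 is a beta-tubulin made almost only by neurons and is widely used to stain them. After a crush or compression, injured axons break down and release neurofilament protein. Neuronal mRNAs lie mainly in the cell bodies, with smaller amounts carried in axons. Which cells gave the reads counted here was not determined.

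Upstream sequence was at hand for 4 of the 8 genes: Ina, Map1b, Map2 and Tubb3. These genes include the pair that varied least alike across the libraries (Map2 and Tubb3) and a pair that varied closely (Map1b and Map2). A link between the sequences and the levels was not tested. The stretches below are RefSeq sequence of build GRCm38.p6, read 5′ to 3′ on the strand of the gene. Each begins 250 bases before the start in RefSeq's promoter table and ends before the first base annotated as part of that gene, in RefSeq for Ina, Map1b and Map2. For Tubb3 an exon annotated in GENCODE M21 begins further upstream, at position 123411424, and sets the end. Capitals mark matches to 3 promoter elements, searched on both strands: the GC box GGGCGG, the CCAAT box CCAAT and the TATA box TATAAA.
Ina, chr19:47014431-47014680, plus strand: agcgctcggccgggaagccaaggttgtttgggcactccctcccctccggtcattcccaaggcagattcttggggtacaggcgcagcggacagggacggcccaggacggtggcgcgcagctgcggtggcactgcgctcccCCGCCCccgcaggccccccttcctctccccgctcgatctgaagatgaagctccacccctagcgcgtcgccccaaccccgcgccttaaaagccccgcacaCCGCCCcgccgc
Map1b, chr13:99516603-99516852, minus strand: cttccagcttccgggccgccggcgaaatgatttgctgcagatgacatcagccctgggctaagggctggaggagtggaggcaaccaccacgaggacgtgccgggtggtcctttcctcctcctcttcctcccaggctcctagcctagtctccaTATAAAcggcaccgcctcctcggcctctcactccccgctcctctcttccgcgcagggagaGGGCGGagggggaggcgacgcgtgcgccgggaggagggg
Map2, chr1:66175079-66175201, plus strand: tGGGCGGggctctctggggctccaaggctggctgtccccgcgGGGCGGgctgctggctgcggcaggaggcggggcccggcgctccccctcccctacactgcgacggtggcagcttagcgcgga
Tubb3, chr8:123411303-123411423, plus strand: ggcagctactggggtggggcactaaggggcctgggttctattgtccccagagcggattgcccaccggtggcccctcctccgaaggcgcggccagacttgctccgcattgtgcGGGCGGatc

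GC boxes were present in each stretch, 2 in Ina, 1 in Map1b, 2 in Map2 and 1 in Tubb3. A GC box was found in 32.7% of the first 250 bases of 32851 promoters, in 13.2% of the first 123 and in 12.9% of the first 121, the lengths shown for Map2 and Tubb3. Map1b held 1 TATA box, an element present in 12.4% of all stretches of 250 bases. None of the 4 held a CCAAT box, which 33.8% of stretches of 250 bases, 16.6% of 123 and 16.3% of 121 did. No matches overlapped. GC content was 70.8% in Ina, 66.4% in Map1b, 77.2% in Map2 and 67.8% in Tubb3, against a mean of 53.2% over all stretches of 250 bases and 51.2% over the shorter ones. These are matches of letters in a short window, chosen after the expression values had been seen.

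The libraries held 18222729 to 31781695 estimated counts, and each of the 8 genes had at least 973 counts in every library, so counting error is small beside the spread between mice. Some libraries stood apart. Over protein-coding genes, each library's deviation from the mean log2 level correlated with transcript GC content (Spearman) at -0.80 to -0.49 in SCI7 and at 0.15 to 0.83 in OVX8_SCI7. Among OVX2_SCI7 libraries, replicate 1 had -0.41 and the remaining 3 had 0.37 to 0.51. Mitochondrial transcripts followed the same division, at 5.35 to 9.35% of counts in SCI7, 8.33% in OVX2_SCI7 replicate 1, and at most 3.36% in the other 7 libraries. OVX2_SCI7 replicate 2 held the most transcript of sensory neuron markers. Values without single libraries stand beside the results they move most.

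No difference between the groups passed the test for any of the 8 genes, and their levels varied most among the mice of 1 group, OVX2_SCI7. In TPM, a level per transcript length scaled to the library's total, the 8 genes together took 811.66 TPM in OVX2_SCI7 replicate 3 and 3879 TPM in OVX2_SCI7 replicate 2, the lowest and the highest of the 12 libraries. Both extremes thus lay within 1 group. Their sum was 1164 to 2584 TPM in SCI7 and 1300 to 2733 TPM in OVX8_SCI7. In whole tissue, fewer neurons and less RNA per neuron cannot be told apart.

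**Figure D1:**
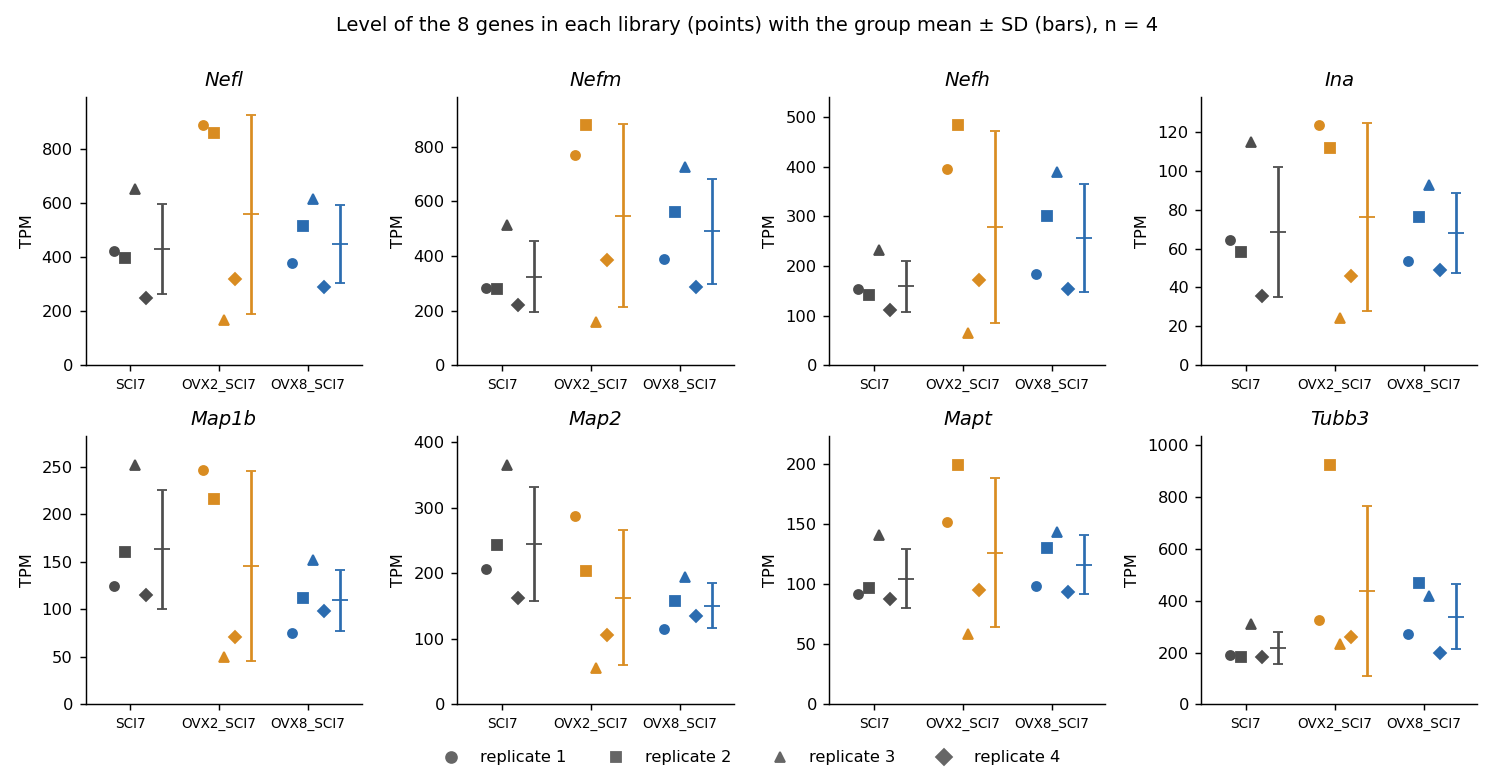
Level of each gene in TPM on the vertical axis, by group on the horizontal axis; points are single libraries, the marker shape gives the replicate number, and bars are the group mean ± SD (n = 4). OVX2_SCI7 spans the widest range for each gene, with replicate 3 lowest for 7 of the 8 genes.

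Nefl, the light chain, was at 422, 397, 653 and 250.4 TPM in SCI7 replicates 1 to 4. It was at 889, 859.6, 166 and 321 TPM in OVX2_SCI7, and at 379, 514, 616 and 289 TPM in OVX8_SCI7. OVX2_SCI7 thus held both the highest pair of libraries and the lowest single library, and the groups overlapped throughout. Group means were 430.4 ± 166, 559 ± 369.99 and 449 ± 144 TPM (SD, n = 4). The log2 difference from SCI7, in counts, was 0.38 ± 0.44 (SE) for OVX2_SCI7 and 0.08 ± 0.44 for OVX8_SCI7. Without OVX2_SCI7 replicate 1 the first was 0.054 and without replicate 2 it was 0.20. With each of the 12 libraries left out in turn it ran from 0.054 to 0.66, and the OVX8_SCI7 value from -0.12 to 0.30.

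Nefm, the medium chain, was at 283, 279.5, 514 and 219.6 TPM in SCI7, at 770.4, 879, 159.5 and 384 TPM in OVX2_SCI7, and at 390.2, 559.9, 726 and 285 TPM in OVX8_SCI7. All 4 OVX8_SCI7 libraries lay above 3 of the 4 SCI7 libraries in TPM, the lowest of them narrowly, while OVX2_SCI7 replicate 3 lay below every other library. In counts scaled to library size (CPM), OVX8_SCI7 replicate 4, at 502, lay below SCI7 replicate 1, at 600. The mean of Nefm was 324 ± 129.7 TPM in SCI7, 548 ± 335 TPM in OVX2_SCI7 and 490.1 ± 194 TPM in OVX8_SCI7. The log2 difference from SCI7 was 0.77 ± 0.44 for OVX2_SCI7 and 0.62 ± 0.44 for OVX8_SCI7, with adjusted p = 0.234 and 0.290 (edgeR quasi-likelihood test, Benjamini-Hochberg over 17820 genes). With single libraries left out these ran from 0.56 to 1.06 and from 0.40 to 0.89, the 0.40 being without OVX8_SCI7 replicate 3.

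Nefh, the heavy chain, had the widest range of the 8 genes, 7.36-fold between its lowest and highest library. Its level was 153, 141, 232 and 111 TPM in SCI7, 395, 484, 65.7 and 171 TPM in OVX2_SCI7, and 183, 300.8, 389 and 154 TPM in OVX8_SCI7. The 12 libraries stood in the same order as for Nefm, and the log2 levels of both genes correlated across them at r = 0.987. The log2 difference from SCI7 was 0.81 ± 0.47 for OVX2_SCI7 and 0.70 ± 0.47 for OVX8_SCI7, with adjusted p = 0.248 and 0.265 (edgeR, Benjamini-Hochberg). The first was 0.52 without OVX2_SCI7 replicate 2, and the second 0.47 without OVX8_SCI7 replicate 3.

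Ina was the least abundant of the 8 genes in 12 of 12 libraries. It was at 64.5, 58.2, 115 and 35.8 TPM in SCI7, at 123, 112, 24.4 and 46.0 TPM in OVX2_SCI7, and at 53.7, 76.1, 92.9 and 49.1 TPM in OVX8_SCI7. Group means were close to each other, 68.3 ± 33.4, 76.3 ± 48.5 and 68.0 ± 20.4 TPM. With a log2 difference of 0.17 ± 0.44 for OVX2_SCI7 and 0.01 ± 0.44 for OVX8_SCI7 against SCI7, the interval of 2 SE either side ran from -0.70 to 1.04 and from -0.87 to 0.88, which leaves room for changes in either direction. The OVX2_SCI7 value was -0.17 without its replicate 1 and 0.026 without its replicate 2.

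Map1b was at 125, 161, 252 and 115 TPM in SCI7, at 246, 216, 49.45 and 71.4 TPM in OVX2_SCI7, and at 75.3, 112, 152 and 98.15 TPM in OVX8_SCI7. The OVX2_SCI7 libraries fell into a high pair, within the SCI7 range, and a low pair, below every SCI7 library. In OVX8_SCI7, 3 of the 4 libraries were below all 4 SCI7 libraries in TPM. In CPM, replicate 2 of these, at 788, lay above the lowest SCI7 library, at 742. The log2 difference from SCI7 was -0.13 ± 0.41 for OVX2_SCI7 and -0.54 ± 0.42 for OVX8_SCI7. The latter was -0.29 without SCI7 replicate 3. The OVX2_SCI7 value depended on the high pair: it was -0.51 without replicate 1, -0.29 without replicate 2, and -1.15 with both left out, then with adjusted p = 0.0216 (edgeR, Benjamini-Hochberg). It was 0.13 without replicate 3 of the low pair. The fit without replicates 1 and 2 called 7141 of all 18426 genes in OVX2_SCI7 against SCI7.

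Map2 had the lowest fitted difference of the 8 genes in both comparisons with SCI7. It was at 207, 243, 366 and 163 TPM in SCI7, at 287, 204, 55.8 and 105 TPM in OVX2_SCI7, and at 115, 158, 195 and 134 TPM in OVX8_SCI7. In OVX8_SCI7, 3 libraries lay below all 4 of SCI7, and the highest, replicate 3, lay above the lowest of SCI7. Mean levels were 245 ± 87.3 TPM in SCI7, 163 ± 103 TPM in OVX2_SCI7 and 151 ± 34.3 TPM in OVX8_SCI7. The log2 difference of OVX8_SCI7 from SCI7 was -0.93 ± 0.41, with an interval of -1.76 to -0.11 and adjusted p = 0.104 by edgeR's quasi-likelihood test with Benjamini-Hochberg adjustment. For OVX2_SCI7 it was -0.68 ± 0.41, with adjusted p = 0.266 by the same test.

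The call on Map2 was sensitive to which libraries were fitted. With the 8 libraries of OVX8_SCI7 and SCI7 alone, edgeR with Benjamini-Hochberg adjustment gave -0.95 and adjusted p = 0.0114, past the threshold of 0.05. That fit called 7426 of all 17288 genes tested. Leaving out OVX2_SCI7 replicate 1, or replicate 3, from the fit of all groups gave adjusted p = 0.0402 and 0.0386 (edgeR, Benjamini-Hochberg) for OVX8_SCI7 against SCI7, with log2 differences of -0.94 and -0.93. These fits called 6710 of 18057 and 6033 of 18078 genes there. Without OVX2_SCI7 replicate 1 the difference of OVX2_SCI7 from SCI7 was -1.21, with adjusted p = 0.0238 (edgeR, Benjamini-Hochberg), where 6264 of 18057 genes were called. Over the 27 settings tried, Map2's difference from SCI7 was negative in both comparisons, at -1.58 to -0.40 for OVX2_SCI7 and -1.11 to -0.66 for OVX8_SCI7.

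Mapt, which encodes tau, varied least, 3.41-fold over the 12 libraries. It was at 92.3, 97.4, 141.5 and 88.0 TPM in SCI7, at 152, 199.8, 58.6 and 95.2 TPM in OVX2_SCI7, and at 98.3, 129.97, 144 and 93.4 TPM in OVX8_SCI7. The groups overlapped, with means of 105 ± 24.8, 126 ± 62.2 and 116 ± 24.5 TPM. The log2 difference from SCI7 was 0.29 ± 0.26 for OVX2_SCI7 and 0.17 ± 0.26 for OVX8_SCI7. Without OVX2_SCI7 replicates 1 or 2 the first was 0.19 or 0.11, and the second was 0.070 without OVX8_SCI7 replicate 3 or SCI7 replicate 4.

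Tubb3 was at 192, 184, 311 and 181 TPM in SCI7, at 327, 925, 232 and 261 TPM in OVX2_SCI7, and at 274, 467.5, 418 and 197 TPM in OVX8_SCI7. In SCI7, replicate 3 lay among the ovariectomised mice, and the other 3 lay below all 8 of them in TPM. In CPM, SCI7 replicate 1, at 216, lay above OVX8_SCI7 replicate 4, at 182. OVX2_SCI7 replicate 2 was far above every other library. The log2 difference from SCI7 was 0.99 ± 0.39 for OVX2_SCI7 and 0.64 ± 0.38 for OVX8_SCI7, with adjusted p = 0.105 and 0.218 (edgeR, Benjamini-Hochberg). Without OVX2_SCI7 replicate 2 the first of these was 0.47, with adjusted p = 0.311 by the same test.

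In that library the markers of sensory neurons of the dorsal root ganglion also stood out. The 10 markers summed to 912.5 TPM there and to 42.1 to 219 TPM in the other 11 libraries. Prph, the peripheral intermediate filament that copolymerises with neurofilaments in sensory and motor neurons, was at 295 TPM there and at 15.7 to 82.4 TPM elsewhere. None of the 10 sensory markers was at 0 in that library, and 0 to 4 of them were at 0 in each of the others. The summed markers were 45.3 to 219 TPM across SCI7, 42.1 to 912.5 TPM across OVX2_SCI7 and 52.9 to 197 TPM across OVX8_SCI7. Among them, Pirt was at 59.3 TPM in OVX2_SCI7 replicate 2 but was not confined to it. It was at 3.19 and 8.47 TPM in SCI7 replicates 2 and 3. OVX2_SCI7 replicate 3 had 7.85 TPM and OVX8_SCI7 replicate 2 had 7.53 TPM, against at most 0.19 TPM in the remaining libraries. Scn10a divided the libraries alike, whereas Calca did not, at 82.7 TPM in OVX2_SCI7 replicate 1 and 61.5 TPM in its replicate 3. The 6 Schwann cell markers were also highest in OVX2_SCI7 replicate 2, at 2302 TPM against 624 to 1770 TPM in the other 11. The 6 motor neuron markers summed to 348.9 TPM there and to 36.6 to 127 TPM elsewhere, but this list holds Prph. Without Prph the motor neuron markers summed to 53.95 TPM in that library, within the range of the others, and the sensory markers to 617.5 TPM. The part of these markers in the Tubb3 level was not tested.

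**Figure D2:**
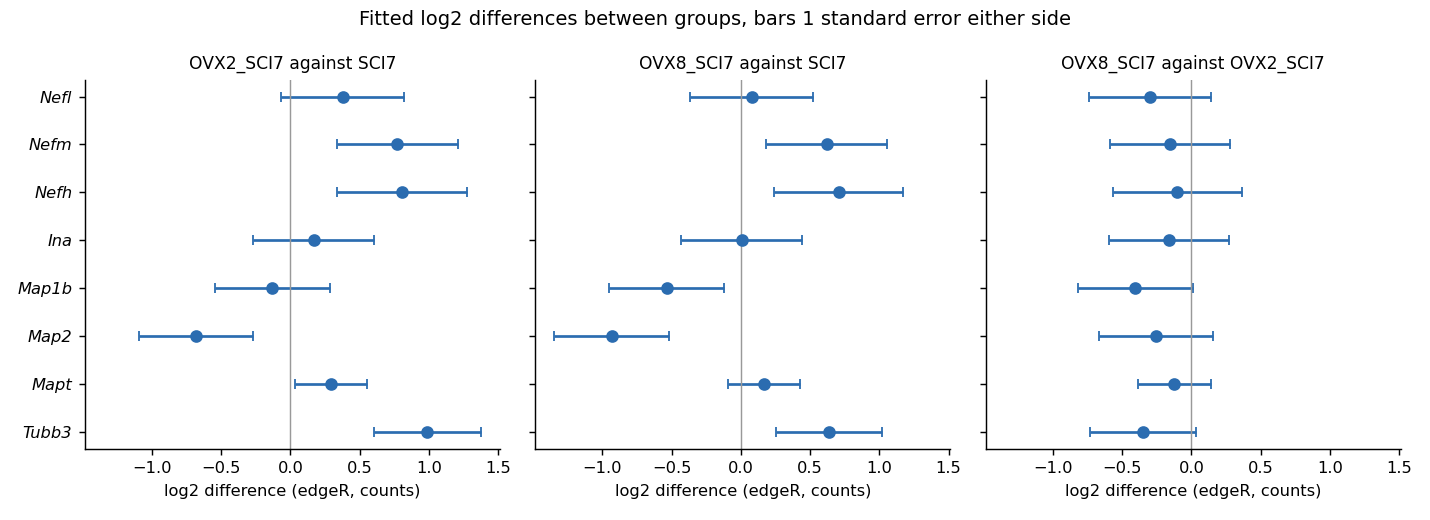
Log2 differences of the edgeR fit on the horizontal axis for the 8 genes on the vertical axis, 1 panel per comparison; bars are 1 SE either side. Map2 is lowest and Tubb3 or Nefh highest against SCI7, and in OVX8_SCI7 against OVX2_SCI7 all 8 values lie between -0.41 and -0.10.

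Calls among the 8 are set here beside the share of all genes called. In OVX2_SCI7 against SCI7, 0 of the 8 were called at an adjusted p of 0.05, as were 0% of the 17820 genes tested by edgeR's quasi-likelihood test. At an unadjusted p below 0.05 there was 1 of the 8, Tubb3, against 32.5% of all genes. In OVX8_SCI7 against SCI7, 0 of the 8 were called, against 27.5% of all genes. There too 1 of the 8, Map2, had an unadjusted p below 0.05, against 43.2% of all genes. In OVX8_SCI7 against OVX2_SCI7, 0 of the 8 and 0% of all genes were called, and at an unadjusted p below 0.05 the shares were 0 of 8 and 2.21%.

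DESeq2, limma-voom and limma-trend on log2(TPM + 1) likewise called 0 of the 8 in each comparison. Of all 17820 genes they called 3683, 893 and 16 in OVX2_SCI7 against SCI7. In OVX8_SCI7 against SCI7 they called 6403, 4930 and 3000, and in OVX8_SCI7 against OVX2_SCI7 6, 0 and 0. Limma-voom with sample quality weights, which gives less weight to libraries that vary more, called Map1b, Map2 and Tubb3 in OVX2_SCI7 against SCI7. It called Nefm, Nefh, Map2 and Tubb3 in OVX8_SCI7 against SCI7. The same tool called 9694 and 11219 of all genes in those comparisons. None of the 8 had groups without overlap in CPM (counts scaled to library size) in any comparison, against 12.4% of all genes for OVX2_SCI7 and SCI7, 39.1% for OVX8_SCI7 and SCI7, and 1.32% for OVX8_SCI7 and OVX2_SCI7. The median log2 difference of the 8 was 0.33, 0.12 and -0.21 in these comparisons, beside 0.04, 0.01 and -0.03 for all genes. In OVX8_SCI7 against OVX2_SCI7 each of the 8 had an adjusted p of 0.999 by edgeR with Benjamini-Hochberg adjustment. The comparisons with SCI7 share the SCI7 libraries.

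The order of the genes by level differed between groups. In SCI7, Nefl was the most abundant of the 8 in 4 of 4 libraries, followed by Nefm in 4 of 4. In OVX8_SCI7, Nefm was first in 3 of 4 and Nefl in 1. In OVX2_SCI7, Tubb3 was first in 2, Nefl in 1 and Nefm in 1. Map2 held rank 3 or 4 in SCI7, rank 5 or 6 in OVX2_SCI7, and rank 5 in every OVX8_SCI7 library. Neighbours in the order often did not differ beyond their spread: Nefl exceeded Nefm in 2 of 4 OVX2_SCI7 libraries, and Map1b exceeded Nefh in 3 of 4 SCI7 libraries, at means of 163 and 159 TPM.

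Ratios between genes within a library are free of library size and show this reordering directly. The ratio of Mapt to Map2 in TPM was 0.447, 0.401, 0.387 and 0.541 in SCI7. It was 0.853, 0.823, 0.739 and 0.695 in OVX8_SCI7, so every one of these libraries lay above all 4 of SCI7. In OVX2_SCI7 it was 0.529 in replicate 1, within the SCI7 range, and 0.97999, 1.05 and 0.902 in the others, above it. The mean log2 ratio of OVX8_SCI7 exceeded that of SCI7 by 0.82 ± 0.13 (SE), with p = 0.0286 in an exact two-sided permutation test, the smallest that 4 libraries against 4 can give. Adjusted over the 18 ratio tests made, that exact test gave p = 0.171, so it did not pass. For OVX2_SCI7 the difference was 0.93 ± 0.25, with exact permutation p = 0.0571.

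The neurofilament chains showed a like pattern. Per unit of Nefl, Nefm was at 0.671, 0.705, 0.787 and 0.877 in SCI7 and at 1.03, 1.09, 1.18 and 0.985 in OVX8_SCI7, without overlap. In OVX2_SCI7 it was at 0.867, 1.02, 0.962 and 1.20, of which replicate 1 lay below the highest SCI7 library. Nefh per unit of Nefl was 0.363, 0.356, 0.356 and 0.442 in SCI7 and 0.483, 0.585, 0.632 and 0.532 in OVX8_SCI7, also without overlap. The log2 differences of OVX8_SCI7 from SCI7 were 0.50 ± 0.10 for Nefm to Nefl and 0.56 ± 0.11 for Nefh to Nefl. Both had exact permutation p = 0.0286, and p = 0.171 once that exact test was adjusted over 18.

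The other 3 ratios overlapped between the groups. Ina per unit of Nefl had means of 0.155 ± 0.0149, 0.140 ± 0.00752 and 0.153 ± 0.0121 in SCI7, OVX2_SCI7 and OVX8_SCI7. Map2 per unit of Map1b was 1.51 ± 0.108, 1.18 ± 0.222 and 1.40 ± 0.105. Tubb3 made up 12.5% of the summed TPM of 7 beta-tubulin genes in SCI7, 16.9% in OVX2_SCI7 and 14.1% in OVX8_SCI7. The highest share, 24.1%, was that of OVX2_SCI7 replicate 2.

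**Figure D3:**
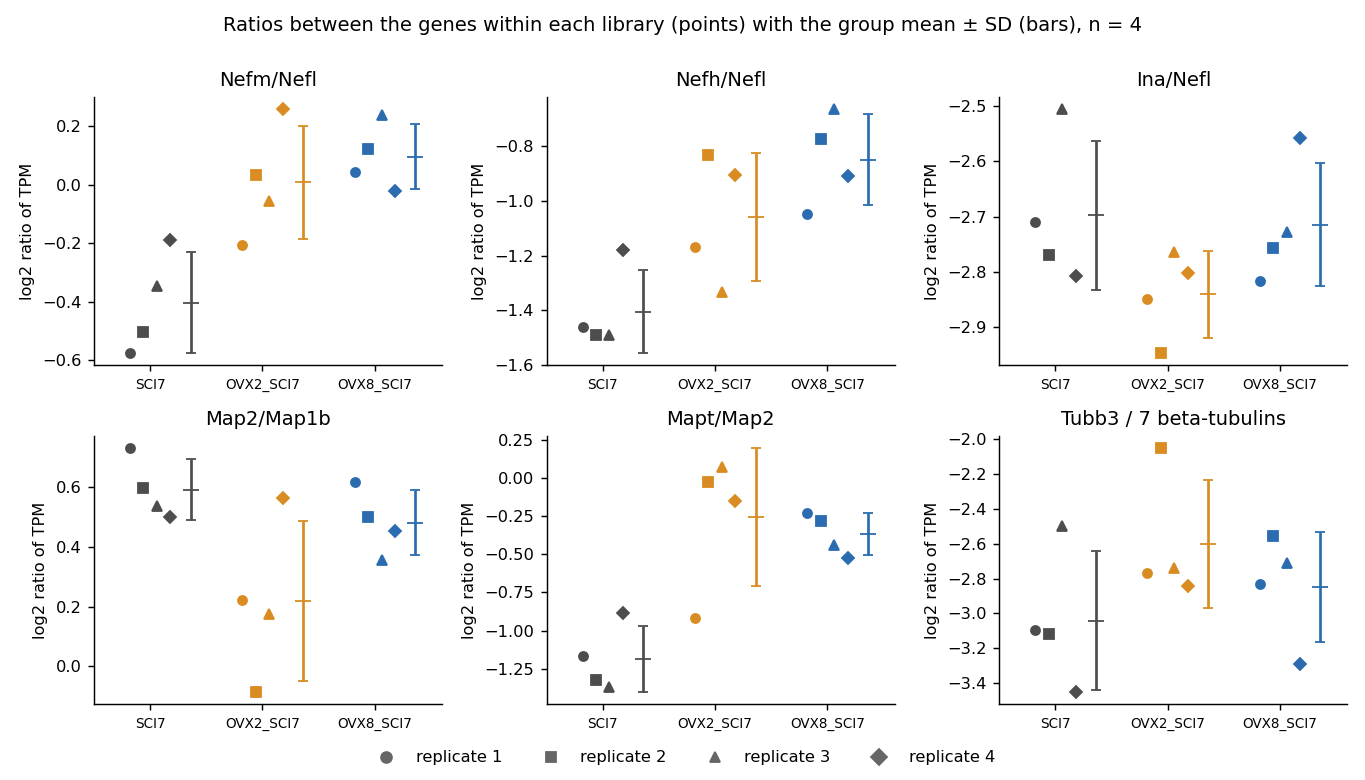
Log2 ratio of TPM between genes within a library on the vertical axis, by group on the horizontal axis; points are libraries, shapes give the replicate number, and bars are the group mean ± SD (n = 4). For Nefm/Nefl, Nefh/Nefl and Mapt/Map2 the 4 OVX8_SCI7 libraries lie above all 4 SCI7 libraries, and OVX2_SCI7 replicate 1 lies lower than most of its group.

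The values for Nefl and Nefm carry a further uncertainty. Their estimated counts were not whole numbers in 12 of 12 libraries, yet their sum was whole, within 0.011, in 12 of 12, so reads that match both genes had been split between them. How many reads were split cannot be read from the tables. The estimated counts of Nefh, Map1b, Map2 and Mapt were whole in every library, and those of Tubb3 in all but 1. Those of Ina were not whole in 12 of 12.

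The differences of the 8 genes followed the GC content of their transcripts. Nefm (57.8%), Tubb3 (57.9%) and Nefh (58.4%) are the richest in GC, and had the 3 highest log2 differences from SCI7 in both ovariectomised groups. Map1b (47.6%) and Map2 (47.8%) are the poorest in GC and had the 2 lowest. Ina (55.5%), Mapt (52.5%) and Nefl (48.8%) lay between them in their differences. Across the 8 genes the Spearman correlation of GC content with the difference was 0.86, 0.90 and 0.55 in the 3 comparisons, in the order used above. Over 17448 genes it was 0.77, 0.80 and 0.45. Genes of a library share its GC trend, so these are descriptions of the libraries. No SCI7 library overlapped one of OVX8_SCI7 in that trend, so in this comparison the trend and the group cannot be told apart.

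Beside genes of their own GC content, some of the 8 stood close and some apart. In OVX8_SCI7 against SCI7 the log2 difference of Nefm was 0.62, and the median of 1279 tested genes within 1 point of its GC content was 0.65. For Nefh the values were 0.70 and 0.69, and for Tubb3 0.64 and 0.65. Map2, at -0.93, lay below its median of -0.18, and Map1b, at -0.54, below -0.21. Ina, at 0.01, lay below 0.51, while Nefl, at 0.08, lay above -0.08. In OVX2_SCI7 against SCI7, Tubb3 was at 0.99 beside a median of 0.55, Nefl at 0.38 beside -0.05, and Map2 at -0.68 beside -0.12.

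Once an offset removed the dependence of each library on GC content and transcript length, none of the 8 was called in any comparison. Of all 17820 genes, that fit called 8 in OVX2_SCI7 against SCI7 and 0 in each other comparison. The sign changed for 5 of the 8 genes in OVX8_SCI7 against SCI7. Nefm then had -0.12, Nefh -0.07, Tubb3 -0.15, Mapt -0.14 and Ina -0.60. Map2 kept its sign at -0.77, as did Map1b at -0.34 and Nefl at 0.10. The ratios moved as well: Nefm to Nefl became -0.23 and Nefh to Nefl -0.17, while Mapt to Map2 remained positive at 0.63 in OVX8_SCI7 and 0.66 in OVX2_SCI7 against SCI7. The offset for ratios was tried after the data had been seen.

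**Figure D4:**
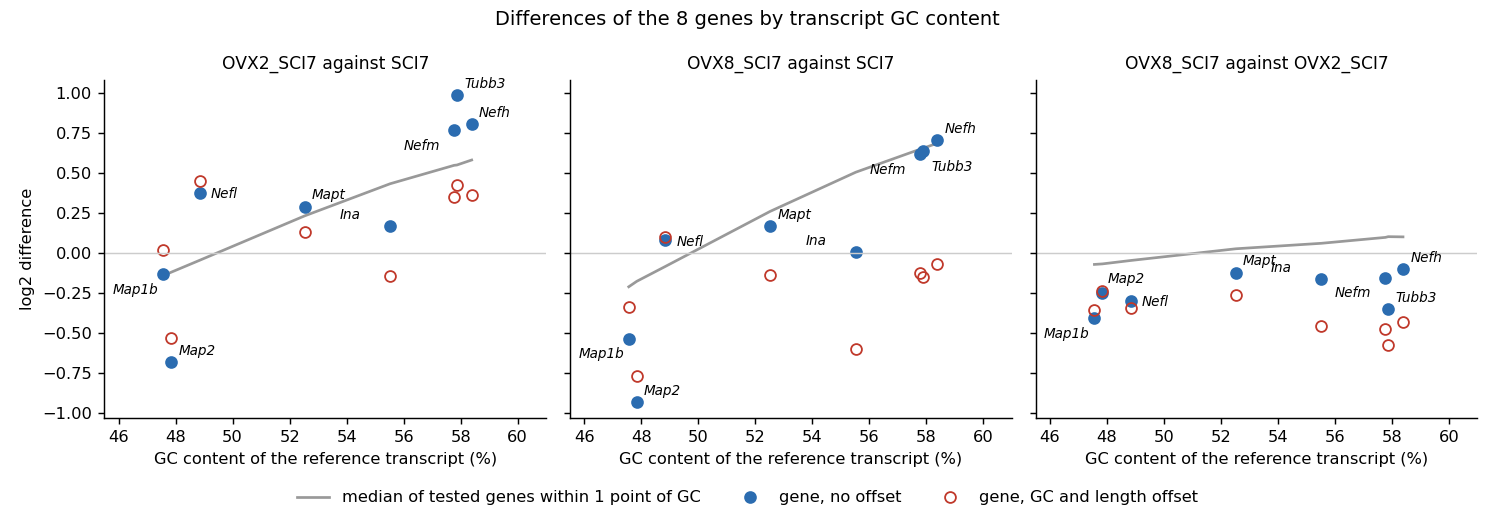
Log2 difference on the vertical axis against GC content of the reference transcript in percent on the horizontal axis, 1 panel per comparison; filled points are the genes without an offset, open points with the GC and length offset, and the line joins the medians of tested genes within 1 point of GC content. In OVX8_SCI7 against SCI7, Nefm, Nefh and Tubb3 lie on the line, and Map2, Map1b and Ina below it.

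The 8 genes varied together from mouse to mouse. Over the 28 pairs, the correlation of log2 levels across 12 libraries had a median of 0.79 and ran from -0.05 for Map2 with Tubb3 to 0.99 for Nefm with Nefh. Taken as deviations from group means, the median was 0.92, and Map2 with Tubb3 was still the lowest at 0.41. Map1b and Map2 correlated at 0.90, Nefl and Ina at 0.98. All genes of a library share its depth and its GC trend, and these values are a description.

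General neuronal markers moved with them. The summed TPM of 10 such markers (Rbfox3, Snap25, Syt1, Syp, Eno2, Uchl1, Elavl3, Elavl4, Thy1 and Stmn2) was 1653 to 4489 in SCI7, 1252 to 4083 in OVX2_SCI7 and 1753 to 2913 in OVX8_SCI7, and none of the 10 was at 0 in any library. Its log2 value correlated at r = 0.93 over 12 libraries with that of the summed level of the 8 genes. The 8 oligodendrocyte markers did so at r = 0.93, the 6 astrocyte markers at 0.84 and the 6 markers of microglia and macrophages at -0.39. The sum of this last list was 433 to 1185 TPM in SCI7, 627 to 1659 TPM in OVX2_SCI7 and 1493 to 1658 TPM in OVX8_SCI7, so every OVX8_SCI7 library lay above every SCI7 library. Taken as deviations from group means, its correlation with the 8 genes was -0.67. Its part in the levels of the 8 genes was not tested. The 6 markers did not move alike: in OVX8_SCI7 against SCI7, edgeR called 2 higher, Csf1r and Tmem119, and 1 lower, P2ry12. Cd68, the largest part of the sum in OVX8_SCI7, was not called. Its level was 850 to 931 TPM in OVX8_SCI7 and 77.1 to 644 TPM in SCI7. P2ry12 was lower, at 36.7 to 55.7 TPM against 71.6 to 90.7 TPM. Of all genes, 39.1% did not overlap between these groups in CPM. In OVX2_SCI7 replicate 3, where 7 of the 8 genes were lowest, the oligodendrocyte markers summed to 11160 TPM, against 16753 to 30814 TPM in the other 11 libraries. How the piece of cord taken divides between lesion and spared tissue was not measured, and its part in these levels was not tested.

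Set against the summed neuronal markers, a measure chosen after the data had been seen, Nefm was at 11.8 ± 1.11% in SCI7, 18.4 ± 3.88% in OVX2_SCI7 and 20.0 ± 3.76% in OVX8_SCI7. The OVX8_SCI7 libraries, at 16.2 to 24.9%, lay above the SCI7 libraries, at 10.6 to 13.3%. Nefh and Tubb3 did so too, at 8.50 to 13.4% against 5.17 to 6.69% and at 11.2 to 17.4% against 6.93 to 10.96%. Map2 was lower, at 5.36 to 7.66% in OVX8_SCI7 and 7.76 to 10.3% in SCI7. Nefl, at 16.5 to 21.1% against 14.5 to 16.8%, overlapped, as did Ina, Map1b and Mapt. These shares carry the GC trend of the libraries, whose part in them was not tested. In CPM, a different measure, 39.1% of all genes did not overlap between OVX8_SCI7 and SCI7. Snap25, a large part of the summed markers, was at 527 to 2065 TPM in SCI7 and 534 to 827 TPM in OVX8_SCI7. Its part in the shares was not tested.

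**Figure D5:**
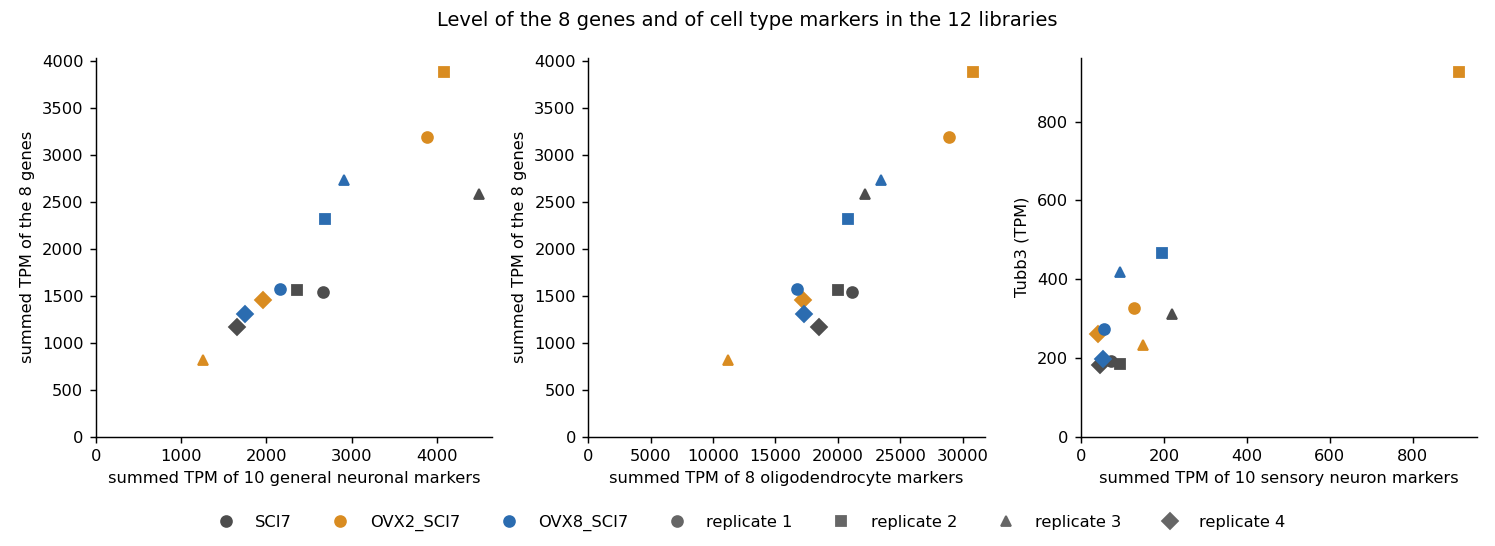
Summed TPM of the 8 genes against summed TPM of general neuronal markers (left) and oligodendrocyte markers (centre), and Tubb3 in TPM against sensory neuron markers (right); each point is 1 of the 12 libraries, coloured by group and shaped by replicate number. OVX2_SCI7 replicate 3 is lowest and replicate 2 highest on the vertical axis of both sums, and OVX2_SCI7 replicate 2 lies alone in the right-hand panel at 925 TPM of Tubb3 and 912.5 TPM of the markers.

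The genes most like 7 of the 8 are given here, found by the correlation of log2 CPM over the 12 libraries, among 12407 genes with a mean of at least 5. Nearest to Nefl was Cplx1 (r = 0.988), to Nefm and Nefh Arhgef4 (0.992 and 0.994), and to Ina Atp6v1g2 (0.995). Slc4a8 was nearest to Map1b (0.987), Ppargc1a to Map2 (0.997) and Ppp2r5b to Tubb3 (0.984). To the mean of the 3 neurofilament chains the nearest were Tafa5, Klhdc8a, Lgi3, Arhgef4 and Ache, at 0.986 to 0.992. With deviations from group means, Arhgef4 was again nearest to Nefm (0.995), whereas Nell1 was nearest to Ina (0.998) and Miga1 to Map2 (0.997).

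Of 99 related cytoskeleton genes in 9 lists, 16 were called in OVX8_SCI7 against SCI7 by edgeR's quasi-likelihood test, 8 in each direction, and 0 in the other comparisons, where 21 and 0 had an unadjusted p below 0.05. The 16 were 16.2% of the lists, below the 27.5% of all genes called in that comparison. The 21 were 21.2%, against 32.5% of all genes. None was called among 8 other intermediate filament genes, 6 other beta-tubulins, 5 alpha-tubulins and 9 stathmins and collapsin response mediators. The other intermediate filaments had a median log2 difference of 0.36, with 8 of 8 above 0, beside 0.01 for all genes. Prph, the peripheral member of that family, had a log2 difference of 0.74 ± 0.64 (SE) there and of 1.80 in OVX2_SCI7 against SCI7, with adjusted p = 0.388 and 0.0895 by edgeR with Benjamini-Hochberg adjustment. Without OVX2_SCI7 replicate 2 the latter was 0.72, with adjusted p = 0.336, and without replicate 1 it was 2.04, with adjusted p = 0.0342 (edgeR, Benjamini-Hochberg). Tubb2b, a beta-tubulin of developing neurons, had 0.52 and 0.66, with adjusted p = 0.0953 and 0.0752 by the same test. Without OVX2_SCI7 replicate 1 the latter was 0.77, with adjusted p = 0.0163 (edgeR, Benjamini-Hochberg), and without replicate 2 it was 0.45. The fit without OVX2_SCI7 replicate 1 called 6264 of all 18057 genes in OVX2_SCI7 against SCI7. For OVX2_SCI7, DESeq2 called 15 of the 99, limma-voom 3, the same with quality weights 38, and limma-trend 0. Of all 17820 genes these tools called 3683, 893, 9694 and 16.

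Among 20 other microtubule-associated proteins, 2 rose and 4 fell in OVX8_SCI7, a share near that of all genes. Map7d1, which binds microtubules and kinesin, rose from 129 ± 11.1 to 272 ± 61.9 CPM (SD, n = 4), a log2 difference of 1.07. Dcx, doublecortin of young migrating neurons, fell from 13.2 ± 3.27 to 5.34 ± 0.915 CPM, a log2 difference of -1.31. For each of these genes the SCI7 and OVX8_SCI7 libraries did not overlap, as for 39.1% of all genes. Adjusted p was 0.0143 for Map7d1 and 0.0145 for Dcx by edgeR's test with Benjamini-Hochberg adjustment.

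Of 13 kinases and phosphatase subunits that act on tau and neurofilaments, 1 rose and 2 fell. For this list and those that follow, the share of all genes called in OVX8_SCI7 against SCI7 was 27.5%. Mark4, a kinase that loosens tau from microtubules, rose by 0.87 on the log2 scale. Gsk3b, a main tau kinase, had a log2 difference of -0.73, and Ppp2r2a, a regulatory subunit of protein phosphatase 2A, one of -0.69. Of 13 axonal motor genes 1 was called, Dctn1 of dynactin, with 0.81, and 1 of 8 spectrin skeleton genes, Sptbn4 of the axon initial segment, with 0.99, whose libraries overlapped between the groups. Among 17 genes of microtubule severing and tubulin modification 3 rose and 2 fell: Spast, the severing enzyme spastin, had -0.80, and Fignl2, a relative of the severing enzyme fidgetin, 1.00.

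The calls in these lists divided by GC content as the 8 genes did. Transcripts of the 8 list genes that rose held 56.3 to 64.1% GC, and those of the 8 list genes that fell held 40.6 to 46.3%. With the GC and length offset edgeR called 0 of the 99 genes in each comparison, with 5 and 8 at an unadjusted p below 0.05 in OVX2_SCI7 and OVX8_SCI7 against SCI7, where DESeq2 with the same offset called 2 and 3. Of all genes, edgeR with the offset called 8 and 0 there, and DESeq2 381 and 758. Single libraries also moved the count of 16: it was 0 without OVX8_SCI7 replicate 2, 9 and 5 without its replicates 1 and 3, and 7, 6 and 10 without SCI7 replicates 1, 2 and 3. All genes called in those fits, in the same order, numbered 0, 2536, 1215, 2343, 1642 and 2912. In OVX2_SCI7 against SCI7 the list count was 21 without OVX2_SCI7 replicate 1, where 6264 of all 18057 genes were called.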

How the data were processed

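Total RNA of 12 mouse spinal cords was sequenced in 3 groups of 4. Per the submitters' processing notes the tools were fastp 0.23.4, HISAT2 2.2.1 and RSEM 1.3.3 with build GRCm39. The library kit and strand are not given in the sources used here. The authors deposited estimated counts, FPKM and TPM for 57180 genes, and 9 columns of their group means were not used; FPKM served for no result. Differences were tested on the authors' expected counts, rounded to whole numbers, with edgeR 4.0.16 in R 4.3.3 (TMM, filterByExpr, quasi-likelihood F-test, no covariate, all 12 libraries in 1 fit, Benjamini-Hochberg over 17820 genes, threshold 0.05), tested first on simulated data. Levels and ratios are in deposited TPM. Ratios were tested by exact two-sided permutation.

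Named genes are all 8, the 2 with the smallest p over the 3 groups in each related list, every called gene of a list with at most 4 calls, and the genes of highest Pearson correlation on log2 CPM with a prior count of 2 (2 per gene, 5 for the neurofilament mean; predicted genes and pseudogenes skipped). The likeness result for Mapt is not reported here. Alternatives were other size factors and filters, DESeq2 1.42.0, limma 3.58.1 (voom, quality weights, trend on log2(TPM + 1)), a replicate block, a GC and length offset, fewer libraries and protein-coding genes only. GC content is that of a GRCm38 reference transcript. The genes and lists were chosen with earlier results of these data known. The order, correlation, GC and neuronal-marker summaries, the check of whole sums, the promoter motifs, the ratios with offset, leaving out 2 OVX2_SCI7 libraries and the alternatives for the related lists were added after the data were seen. Python 3.11.15, pandas 2.3.3, SciPy 1.17.1 and Matplotlib 3.10.9 were used. All 12 libraries carry the same batch label, so p-values measure the spread between mice under that label.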

Additional observations from a re-analysis of the deposited data

Results flagged for a closer look

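Of 42 groups of 4 libraries checked for a single library far from the other 3, 3 held one, and chance alone marks about 1 group in 20. Tubb3 stood at 808.4 CPM in OVX2_SCI7 replicate 2, high above the other libraries of its group. As a share of the 7 beta-tubulin genes, Tubb3 in the same library had a log2 ratio of -2.05, again the highest of its group. The log2 ratio of Nefh to Nefl in SCI7 was highest in replicate 4, at -1.18, apart from the other 3.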

How the results depend on the processing

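With 4 libraries a group, the spread between mice, not counting depth, limits what can be called: the SE of the 8 genes' differences from SCI7 was 0.26 to 0.47 on the log2 scale. Values below are log2 differences, named as OVX2_SCI7 or OVX8_SCI7 against SCI7 unless stated; the cause of each change was not tested. Over 26 alternatives and 8 genes, 17, 29 and 34 of 208 values changed sign in the 3 comparisons.

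Of the 8 genes, those called numbered 0 to 1 with single libraries left out in both comparisons with SCI7 and 0 to 0 in OVX8_SCI7 against OVX2_SCI7. They numbered 3 and 4 by voom with quality weights, 2 and 1 without OVX2_SCI7 replicates 1 and 2, and 1 for OVX8_SCI7 with 8 libraries alone. All genes called there numbered 9694 and 11219 of 17820, 7141 and 7720 of 18426, and 7426 of 17288. With single libraries left out, all genes called ran from 0 to 6264 for OVX2_SCI7 and from 0 to 6710 for OVX8_SCI7.

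The related genes called numbered, for OVX2_SCI7, 4 with the stricter filter, 15 by DESeq2, 3 by voom, 38 with quality weights, 2 with the offset in DESeq2, 1 with protein-coding genes, 28 without OVX2_SCI7 replicates 1 and 2, and 0 to 21 without single libraries. All genes called, in the same order, numbered 1144, 3683, 893, 9694, 381, 720, 7141 and 0 to 6264. For OVX8_SCI7 the related genes were 10 unfiltered, 55 with quality weights, 9 by limma-trend, 0 with the offset, 0 with offset and block, 3 with the offset in DESeq2, 31 with 8 libraries alone, 31 without OVX2_SCI7 replicates 1 and 2, and 0 to 22 without single libraries. All genes called there, in that order, numbered 3257, 11219, 3000, 0, 1, 758, 7426, 7720 and 0 to 6710.

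Whether the replicate numbers pair the mice is not known here. In their genes' deviations from group means, same-numbered libraries of different groups correlated at -0.75 to 0.66. Such values can neither show nor exclude a pairing. With a replicate block 0 of the 8 genes were called in each comparison, and 11 related genes against 16 in OVX8_SCI7; all genes called went from 4893 to 3390.

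In OVX2_SCI7 against SCI7 these values changed sign, size or call. With quality weights, Nefl had -0.024, Ina -0.087, Map1b -0.74, Map2 -1.10, Tubb3 0.76. With OVX2_SCI7 replicates 1 and 2 left out, Nefl had -0.58, Nefm -0.0051, Nefh -0.18, Ina -0.71, Mapt -0.18, Map1b -1.15, Map2 -1.58. With the GC and length offset, Ina had -0.14, Map1b 0.0198, Nefm/Nefl -0.10, Nefh/Nefl -0.084, Ina/Nefl -0.59. With offset and replicate block, Ina had -0.13. With the offset in DESeq2, Ina had -0.16, Map1b 0.0049. Without single libraries the ranges were Ina -0.17 to 0.48, Map1b -0.51 to 0.13, Map2 -1.21 to -0.40, Nefl 0.054 to 0.66, Nefm 0.56 to 1.06, Nefh 0.52 to 1.119, Mapt 0.11 to 0.49, Tubb3 0.47 to 1.17.

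In OVX8_SCI7 against SCI7 these values changed sign, size or call. With quality weights, Nefm had 0.96, Nefh 1.02, Map2 -0.81, Tubb3 0.99. With the GC and length offset, Nefm had -0.12, Nefh -0.067, Ina -0.60, Mapt -0.14, Tubb3 -0.15, Nefm/Nefl -0.23, Nefh/Nefl -0.17, Ina/Nefl -0.70, Map2/Map1b -0.43, Mapt/Map2 0.63. With offset and replicate block, Nefm had -0.10, Nefh -0.037, Ina -0.50, Mapt -0.13, Tubb3 -0.18. With the offset in DESeq2, Nefm had -0.063, Nefh -0.012, Ina -0.54, Mapt -0.082, Tubb3 -0.091. With DESeq2 size factors, Ina had -0.012. With stricter low-count filter, Ina had -0.038. With DESeq2, Ina had -0.012. With 8 libraries of the comparison alone, Ina had -0.0079, Map2 -0.95. With OVX2_SCI7 replicates 1 and 2 left out, Map2 had -0.93. With protein-coding nuclear genes only, Ina had -0.073. Without single libraries the ranges were Nefl -0.12 to 0.30, Ina -0.22 to 0.32, Map2 -1.11 to -0.72, Ina/Nefl -0.069 to 0.048, Nefm 0.40 to 0.89, Nefh 0.47 to 0.90, Map1b -0.71 to -0.29, Mapt 0.07 to 0.30, Tubb3 0.45 to 0.84.

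In OVX8_SCI7 against OVX2_SCI7 these values changed sign or size. With quality weights, Nefl had 0.38, Nefm 0.33, Nefh 0.54, Ina 0.45, Map1b 0.38, Map2 0.29, Mapt 0.13, Tubb3 0.23. With OVX2_SCI7 replicates 1 and 2 left out, Nefl had 0.67, Nefm 0.63, Nefh 0.89, Ina 0.73, Map1b 0.62, Map2 0.65, Mapt 0.35, Tubb3 0.25. With limma-trend on TPM, Nefm had 0.03, Nefh 0.15, Ina 0.063, Map2 0.11, Mapt 0.003999. With limma-voom, Nefh had 0.088, Ina 0.0031. With the GC and length offset, Nefm/Nefl had -0.13, Nefh/Nefl -0.087, Ina/Nefl -0.11. Without single libraries the ranges were Nefl -0.58 to 0.018, Nefm -0.44 to 0.053, Nefh -0.41 to 0.17, Ina -0.43 to 0.17, Map2 -0.53 to 0.26, Mapt -0.32 to 0.041, Tubb3 -0.54 to 0.15.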
